A study of Mus musculus with 12 samples.

Results

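The families described here are old DNA transposons of the mouse genome, taken from the deposited repeat table by name: every family whose name begins with Charlie, Tigger, Kanga, Cheshire, Zaphod, Arthur, URR1, MER5 or MER20. The rule found 96 of the 1217 repeat families, and used no measured value. By their names, 50 belong to the hAT-Charlie group, 6 to hAT-Tip100, 19 to TcMar-Tigger and 7 to TcMar-Tc2. The remaining 14 are long terminal repeats of endogenous retroviruses (names beginning MER50, MER51, MER52, MER54 and MER57) that the prefix MER5 also catches, so the label holds for 82 of the 96 families. All 96 are counted below unless the 82 are named.

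The RNA came from E14 mouse embryonic stem cells, a 129/Ola line. Cells grew either in serum medium with 15% fetal bovine serum and LIF, which the submitters call primed, or in 2i medium with N2, B27 and LIF, and the inhibitors PD0325901 (of MEK) and CHIR99021 (of GSK3), which they call naive. In each medium, cells carried a lentiviral pLKO.1 vector with a scrambled hairpin (shScr, the control) or a hairpin against Setdb1 (shSetdb1, the knockdown), and all 4 groups were given puromycin at 1 µg/ml starting 48 h post-infection and harvested 3 days into selection. Each group held 3 libraries, numbered as replicates 1 to 3, made from rRNA-depleted RNA with a strand-specific method. One hairpin was used, with no rescue, and separate cultures are not named for the replicates, so the p-values below refer to the spread among these libraries, part of which may be technical.

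DNA transposons move by cut and paste: a transposase binds the terminal inverted repeats of a copy, excises it and inserts it elsewhere. The hAT and Tc1/mariner superfamilies, to which the 82 belong, left many fossil copies in placental mammals, and no family of either is known to be active in the mouse today. Most copies are short remnants without a transposase gene, many lie in introns, and reads on them can come from host transcripts as well as from the element. SETDB1 places H3K9 trimethylation, is brought to endogenous retroviruses by TRIM28 and KRAB zinc finger proteins, and is known as a repressor of those retroviruses in embryonic stem cells.

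Setdb1 itself was at 2959, 2237 and 1587 normalised reads (recovered reads divided by the library's size factor) in serum controls and at 418, 379 and 409 in serum knockdowns. It was at 3607, 2724 and 2253 in 2i controls and at 837, 610 and 340 in 2i knockdowns, so knockdown libraries were below control libraries in both media. Depth ran from 4821181 to 15509401 gene reads and from 4407665 to 8962913 repeat reads per library. Small structural RNA and tRNA families took 15.3 to 69.3% of the repeat reads, and over 60% in replicate 3 of the 2i control (64.3%) and of the 2i knockdown (69.3%). All 8 stem cell markers listed were present in every group, with summed levels of 37851 to 80036 normalised reads. Of these, Utf1 was lower and Sox2 higher in 2i than in serum controls, each without overlap. Zfp42 and Esrrb were lower in serum knockdowns than in serum controls, also without overlap. Zfp42 was at 11933, 13222 and 8954 in those controls and 6398, 6028 and 7930 in the knockdowns. Esrrb was at 3339, 2472 and 3704 against 1981, 1881 and 1852. Utf1 was at 0 in replicate 3 of the 2i knockdown. Summed levels of 10 markers of fibroblasts and early lineages were 877 to 2241 in serum controls, 1588 to 3798 in serum knockdowns, 4876 to 6402 in 2i controls and 2406 to 5177 in 2i knockdowns. Vim, an intermediate filament gene, made up 80.4 to 99.6% of that sum, and the other 9 markers together were at 79.95 to 172 in serum controls, 92.8 to 104 in serum knockdowns, 102 to 216 in 2i controls and 12.2 to 108 in 2i knockdowns. Among those 9, Thy1 and Gata6 were lower in 2i than in serum controls, and T and Cdx2 were higher, each without overlap. After knockdown, Gata6 was lower in serum and T lower in 2i, and Col1a1 was higher in 2i by a narrow margin, each without overlap. The part of these markers in the results below was not tested.

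The 96 families were a small and very uneven slice of the repeat RNA. They held 490655 reads over the 12 libraries, which was 0.608% of all repeat reads and 1.01% of the repeat reads outside structural RNA and tRNA. The 5 families with the most reads took 48.6% of these, and the top 10 took 66.2%. Reads appeared in every library for 79 families, no family was without a read, and 4 families had fewer than 100 reads in all. The hAT-Charlie group supplied 74.2 to 77.8% of member reads in each library and TcMar-Tigger 15.9 to 18.7%. The smaller groups varied over 2-fold between libraries: hAT-Tip100 from 1.04 to 2.56%, TcMar-Tc2 from 1.31 to 3.62% and the long terminal repeats from 1.88 to 4.05%. No source used here gives family lengths or copy numbers, so levels are compared across libraries and not between families.

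Among hAT-Charlie families, the rodent families URR1A and URR1B had the most reads. URR1B was at 8956, 6800 and 8889 normalised reads in replicates 1 to 3 of the serum control, 8025, 7874 and 6917 in serum knockdowns, 5177, 6101 and 5174 in 2i controls and 7600, 5347 and 4534 in 2i knockdowns. URR1A was at 9492, 5962 and 9580 in serum controls, 7008, 7416 and 6336 in serum knockdowns, 4257, 5301 and 4087 in 2i controls and 6150, 4732 and 3562 in 2i knockdowns. In both families control and knockdown libraries overlapped within each medium, and all 3 serum controls were above all 3 2i controls. MER20, a family known as a source of regulatory elements in the endometrium of placental mammals, was at 3445, 1970 and 2909 in serum controls, 2951, 2727 and 2079 in serum knockdowns, 1653, 2026 and 1235 in 2i controls and 2429, 1647 and 1246 in 2i knockdowns. Its 2i control replicate 2 was above serum control replicate 2, so those groups overlapped.

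TcMar-Tigger families were led by Tigger7, at 4104, 2630 and 4057 normalised reads in serum controls, 3076, 3300 and 2601 in serum knockdowns, 1581, 1820 and 1618 in 2i controls and 2460, 1688 and 1622 in 2i knockdowns. All 6 serum libraries of Tigger7 lay above all 6 2i libraries. In the hAT-Tip100 group, Zaphod2 was at 110, 142 and 182 in serum controls, 353, 244 and 176 in serum knockdowns, 158, 242 and 106 in 2i controls and 247, 134 and 51.2 in 2i knockdowns, with overlap between every pair of groups compared. Of the TcMar-Tc2 families, Kanga11a had the most reads and the widest spread within groups of any member. It was at 420, 539 and 258 in serum controls, 1177, 1056 and 196 in serum knockdowns, 365, 221 and 109 in 2i controls and 640, 109 and 104 in 2i knockdowns. Replicate 3 was lowest of its 3 in all 4 groups for Kanga11a.

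**Figure D1:**
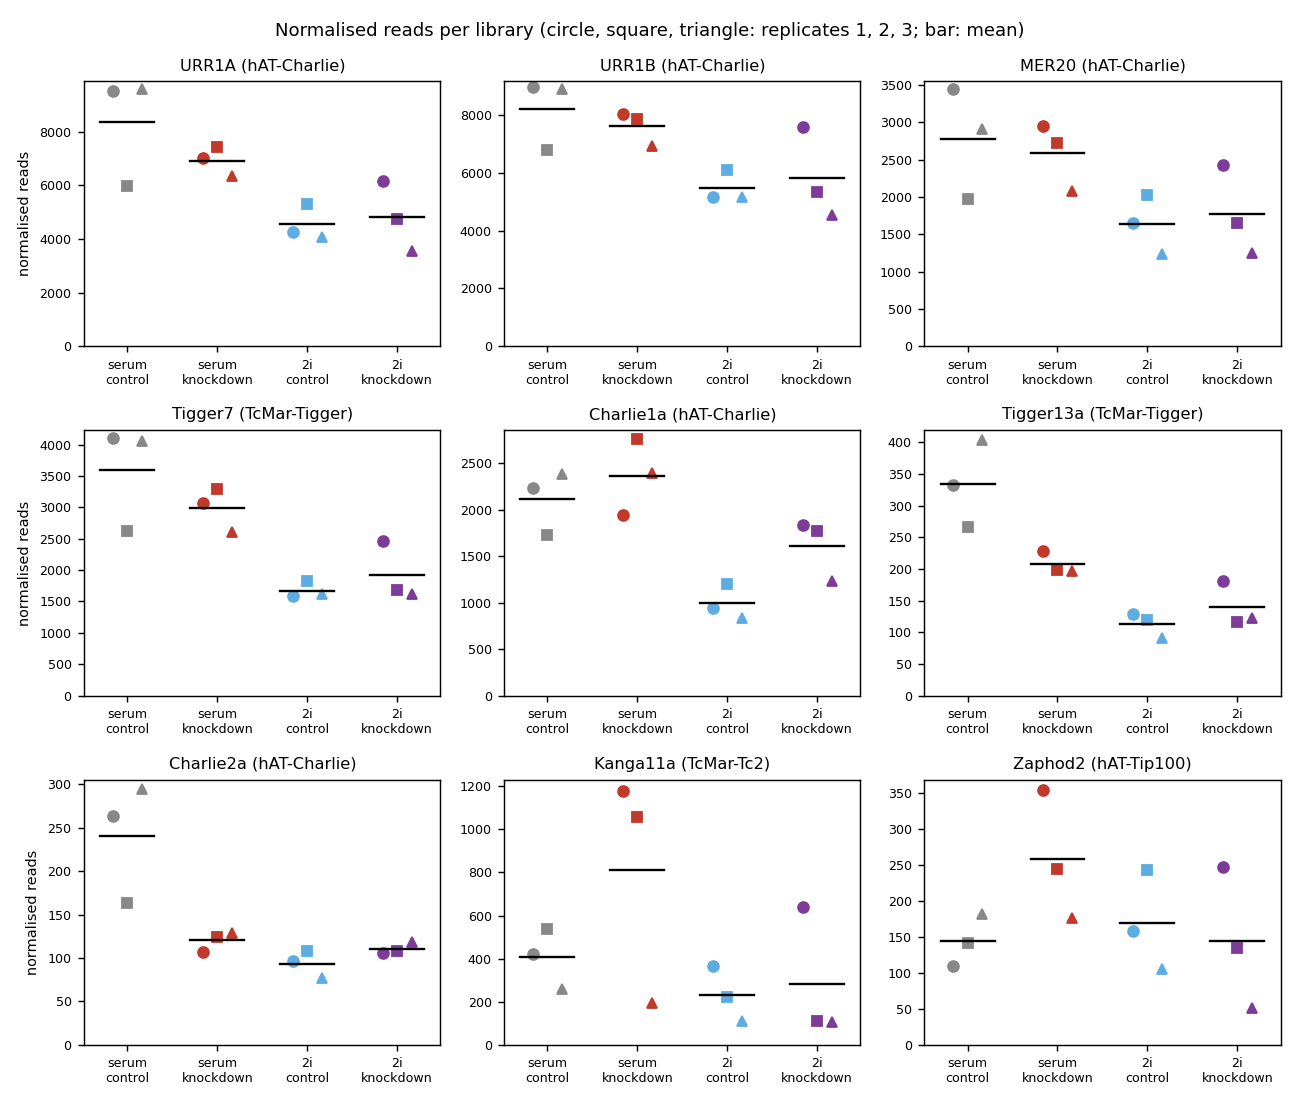
Normalised reads (vertical axis, linear from 0) of 9 member families in each of the 12 libraries, by group on the horizontal axis; circles, squares and triangles are replicates 1, 2 and 3 and the bar is the group mean. URR1A, URR1B and Tigger7 sit higher in serum controls than in 2i controls, while control and knockdown libraries overlap within each medium for these 3 families.

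A family was tested when its mean log2 value lay at least 0.5 above the table's lowest value, and 95 of the 96 members and 1097 of all 1217 families did. Cheshire_Mars was left out, with 14 reads in all and a mean 0.31 above the lowest value. Just inside were MER50-int (0.53 above it, 49 reads) and Charlie10b (0.65 above it, 51 reads).

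After Setdb1 knockdown in serum, 0 of 95 members passed a limma adjusted p of 0.05, against 3.37% of all families tested. At an unadjusted p under 0.05 there were 3 members, against 9.39% of all families, and voom with TMM scaling called 1, against 4.56% of all families. The median member log2 change was -0.16 and that of all families -0.03. The member median ran from -0.31 without serum control replicate 2 to -0.02 without serum control replicate 1, and from -0.29 to -0.02 over the scalings, all below 0. Medians were -0.19 for hAT-Charlie, -0.10 for hAT-Tip100, -0.17 for TcMar-Tigger and -0.27 for TcMar-Tc2. In bulk RNA, fewer cells of a type and less RNA per cell cannot be told apart.

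The member nearest the threshold in serum was Charlie2a, a hAT-Charlie family, at 263, 163 and 295 normalised reads in the control and 107, 125 and 129 in the knockdown. All 3 knockdown libraries were below all 3 controls, with a change of -0.85 ± 0.28 log2 units (SE, n = 3 against 3, limma adjusted p = 0.152). With voom and TMM scaling its value was -0.94 (limma adjusted p = 0.0476), and after centring on families outside structural RNA -0.97 (limma adjusted p = 0.0424, with 3.92% of all families called). Tigger13a was at 332, 266 and 404 in the control and 229, 199 and 196 in the knockdown, also without overlap, with a change of -0.61 ± 0.27 log2 units (SE, limma adjusted p = 0.452). The knockdown and control libraries did not overlap for 11 of 95 members, 2 higher and 9 lower, which is 11.6% against 14.6% of all families. Of the 1097 families, 107 were higher and 53 lower without overlap. The members' share in both directions together was thus no larger than the table's, but it leaned the other way, which was not tested.

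In 2i, again 0 of 95 members passed after knockdown, against 10.5% of all families tested with limma. Under an unadjusted p of 0.05 there were 7, 5 of them higher, against 23.1% of all families, and voom with TMM scaling called 2, both lower, against 7.38% of all families. The median member log2 change was 0.06 and that of all families 0.24. Leaving out 1 library moved the member median from -0.12 (without 2i knockdown replicate 1) to 0.22 (without 2i knockdown replicate 3), and it was also below 0, at -0.02, without 2i control replicate 3. By superfamily the median was 0.05 for hAT-Charlie, 0.55 for hAT-Tip100, 0.03 for TcMar-Tigger and 0.14 for TcMar-Tc2. Groups did not overlap for 11 of 95 members, 9 higher and 2 lower, which is 11.6% against 23.8% of all families. Of the 6 hAT-Tip100 families, Arthur1, Arthur1A and Zaphod had all 3 knockdown libraries above all 3 controls, and none of the 6 passed the test.

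Charlie16a, of the hAT-Charlie group, was nearest the threshold in 2i. It was at 179, 223 and 238 normalised reads in 2i controls and at 167, 61.6 and 38.4 in 2i knockdowns. The knockdown libraries were all below the controls, replicate 1 by little, and the log2 change was -1.26 ± 0.41 (SE, limma adjusted p = 0.0606). Serum libraries of Charlie16a overlapped, at 126, 155 and 53.5 in the control and 91.8, 128 and 102 in the knockdown. Charlie1a stood at 939, 1203 and 834 in 2i controls and 1837, 1767 and 1230 in 2i knockdowns, without overlap and with a change of 0.68 ± 0.24 log2 units (SE, limma adjusted p = 0.0892).

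Calls in 2i turned on the scaling of the libraries. Size factors recomputed as the median of ratios over the 937 families with a read in every library, a choice made after seeing the data, called Charlie16a lower (-1.58, limma adjusted p = 0.0225) and Charlie4z lower (-0.96, limma adjusted p = 0.0242). Size factors of the gene table, also chosen then, called 7 members, all higher, among them Charlie1a (1.13, limma adjusted p = 0.00204) and Tigger1 (1.05, limma adjusted p = 0.00439). The share of all families called was 9.66% with the first and 30.7% with the second. No member passed under both of these scalings.

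The test of whether the knockdown changes differ between 2i and serum passed for 0 of 95 members, against 0.182% of all families with limma. At an unadjusted p under 0.05 there were 5 members, against 9.48% of all families, and voom with TMM scaling called 0, against 0.00% of all families. The median member difference was 0.27 and that of all families 0.31, and the member median ran from 0.09 without 2i knockdown replicate 1 to 0.44 without 2i knockdown replicate 3. Charlie23a had the largest positive difference, 1.58 ± 0.62 (SE), and Charlie10b the largest negative one, -1.44 ± 0.58 (SE), and neither passed (limma adjusted p = 0.490 and 0.491).

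Retroviral families had larger median changes in the same fit. In serum 8 of 16 IAP families and 7 of 9 MMERVK10C and RLTR10 families rose, with median log2 changes of 1.37 and 2.32, against 3.28% of all families called higher. In 2i it was 15 of 16 and 9 of 9, with medians of 2.58 and 2.12, against 10.4% of all families. Of the 73 ancient L1 families tested 0 and 1 rose (medians -0.22 in serum and 0.22 in 2i), and of the 92 MaLR families 0 and 6 rose (-0.09 and 0.33). Other DNA transposons, 49 families outside the name rule, had 0 and 2 that rose, with medians of -0.18 and 0.16. The members' own medians were -0.16 and 0.06.

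**Figure D2:**
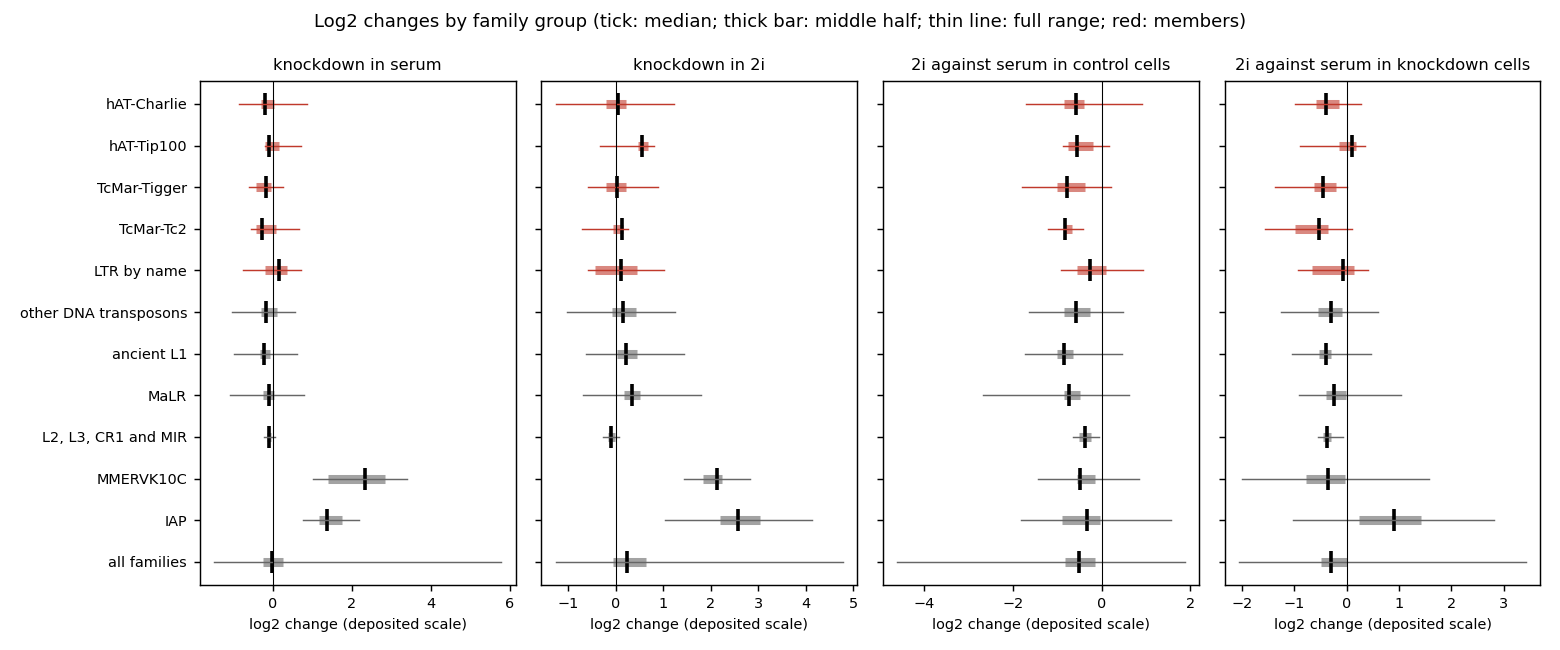
Log2 changes on the deposited scale (horizontal axis) for the member superfamilies in red and comparison lists in grey, in 4 contrasts; the tick is the median, the thick bar the middle 50% of families and the thin line the full range. The red groups lie near 0 after knockdown in serum and below 0 for 2i against serum in control cells, while IAP and MMERVK10C families lie above 0 after knockdown in both media.

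On the deposited scale the members differed more between media than after knockdown. In control cells 15 of 95 members were lower in 2i and 0 higher, against 17.1% of all families called and 16.6% called lower, so the members' share, 15.8%, was that of the table as a whole. The median member log2 change was -0.57, beside -0.52 for all families, -0.85 for ancient L1, -0.74 for MaLR and -0.57 for other DNA transposons. With median-of-ratios factors the member median was -0.12 here, beside -0.15 for knockdown in serum and -0.22 for knockdown in 2i. Which comparison moved the members more therefore depended on the scaling. The 15 were 9 hAT-Charlie families (URR1A, MER5A1, Cheshire, Charlie1a, Charlie2a, Charlie7, Charlie12, Charlie13a and Charlie23a), 5 TcMar-Tigger families (Tigger1, Tigger6b, Tigger7, Tigger12A and Tigger13a) and 1 TcMar-Tc2 family, Kanga1b. None of the 14 families that are long terminal repeats by name passed.

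The smallest limma adjusted p belonged to Tigger13a, a TcMar-Tigger family. It was at 332, 266 and 404 normalised reads in serum controls and 129, 119 and 91.7 in 2i controls, a mean 2.95-fold higher in serum (log2 change -1.39 ± 0.27, SE, limma adjusted p = 0.0133). Charlie1a, at 2227, 1728 and 2384 in serum against 939, 1203 and 834 in 2i, was 2.13-fold higher in serum (log2 change -1.08 ± 0.24, SE, limma adjusted p = 0.0164). Tigger7 was 2.15-fold higher in serum (log2 change -1.07 ± 0.24, SE, limma adjusted p = 0.0164). In none of the 3 families did a serum control overlap a 2i control.

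The 3 largest log2 changes among the 15 were in families with 245 to 892 reads over the 12 libraries, each with at least 1 2i control near 0. Tigger6b was at 127, 73.3 and 189 in serum controls and 37.2, 56.0 and 1.08 in 2i controls (log2 change -1.80 ± 0.48, SE, limma adjusted p = 0.0243), with replicate 3 of the 2i control far below the other 2i controls. Charlie23a was at 71.4, 45.7 and 39.4 in serum and 5.44, 22.2 and 0 in 2i (log2 change -1.69 ± 0.44, SE, limma adjusted p = 0.0235), again lowest in replicate 3. Tigger12A was at 54.8, 32.4 and 34.3 against 0, 21.2 and 1.08 (log2 change -1.63 ± 0.49, SE, limma adjusted p = 0.0346). Replicate 3 of the 2i control is the control library with 64.3% structural RNA, and its part in these low values was not tested. Without replicate 3 of both 2i groups, 5 of the 15 members still passed, Charlie1a, Charlie2a, MER5A1, Tigger7 and Tigger13a, with 8.48% of all families called.

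Leaving out 1 control library at a time changed the count for the media from 15 to between 0 and 21. It was 0 without serum control replicate 1 and 0 without serum control replicate 3, with 0.547 and 0.456% of all families called. It was 1 (Tigger13a) without 2i control replicate 1 and 1 (Tigger13a) without 2i control replicate 3, with 0.820 and 1.46% of all families called. Without serum control replicate 2 it was 21, and without 2i control replicate 2 it was 17, with 22.8 and 17.6% called, so the members gained and lost calls along with the table as a whole. Groups did not overlap for 33 of the 95 members, 2 higher and 31 lower in 2i, which is 34.7% against 41.6% of all families.

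In knockdown cells 0 of 95 members passed between the media, against 0.547% of all families with limma. At an unadjusted p under 0.05 there were 9, all lower in 2i, against 11.1% of all families, and voom with TMM scaling called 0, against 1.37% of all families. The median member log2 change was -0.39 and that of all families -0.29, and the member median ran from -0.54 without 2i knockdown replicate 1 to -0.22 without 2i knockdown replicate 3. Groups did not overlap for 19 of 95 members, all lower in 2i, which is 20% against 13.1% of all families in both directions. Of the 1097 families, 103 were lower in 2i and 41 higher without overlap. URR1A was 1.44-fold higher in serum here (log2 change -0.55 ± 0.26, SE, limma adjusted p = 0.425) beside 1.83-fold in control cells. Tigger8 had the smallest adjusted p, at 66.7, 49.3 and 23.7 in serum knockdowns and 20.9, 14.7 and 0 in 2i knockdowns (log2 change -1.36 ± 0.46, SE, limma adjusted p = 0.307).

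How far the members can serve as a background depends on what the libraries are scaled to. The deposited size factors of the repeat table ran from 0.625 to 1.155. Divided by a median-of-ratios factor over 937 families, and so compared with a scaling in which the typical family is level, they were 0.790, 0.970 and 0.791 in serum controls and 0.842, 0.764 and 0.969 in serum knockdowns. They were 1.39, 1.16 and 1.36 in 2i controls and 0.826, 1.09 and 1.24 in 2i knockdowns. All 3 2i control libraries were therefore divided by more, and all 6 serum libraries by less, than the typical family would ask for. With the median-of-ratios factors the median for 2i against serum in control cells moved from -0.52 to -0.02 for all families and from -0.57 to -0.12 for the members. The members called in that contrast were then Tigger13a, lower in 2i (-0.84, limma adjusted p = 0.0380), and MER20B, higher in 2i (1.12, limma adjusted p = 0.0128), with 3.01% of all families called. Under the other scalings the share of all families called in this contrast was 5.83% after centring on all families, 7.29% after centring on those outside structural RNA, 1.64% after centring on the members, 3.10% with quantile normalisation and with voom and TMM, 36.2% with voom and gene-table factors and 34.3% with retransformed gene-table factors. For knockdown in 2i it was 8.39, 9.85, 12.9, 14.2, 7.38, 29.5 and 30.7% in the same order, so the members' counts under each scaling stood beside widely different shares of the table.

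MER20B, a hAT-Charlie family chosen here after its values were seen, was at 279, 200 and 345 normalised reads in serum controls and 353, 496 and 366 in 2i controls. On the deposited scale it had all 3 2i controls above all 3 serum controls and a change of 0.54 ± 0.30 log2 units (SE, limma adjusted p = 0.191). Tigger13a was the only 1 of the 15 members to pass under the deposited scaling, centring on all families, on those outside structural RNA and on the members, quantile normalisation, TMM, median-of-ratios and gene-table factors. The other 14 lost their call under at least 1 of these.

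Relative to all families, a shift of a whole library moves the members and the table alike, so centring leaves the distance between their medians as it is. Over the 7 other filters and rescalings, the members' median minus that of all families lay between -0.14 and -0.07 for knockdown in serum and between -0.23 and -0.14 for knockdown in 2i. It lay between -0.12 and 0.02 for 2i against serum in control cells and between -0.13 and -0.07 in knockdown cells. Leaving out libraries widened these ranges to -0.19 to -0.02 for knockdown in serum, -0.26 to -0.11 for knockdown in 2i and -0.11 to 0.06 for the control media, and gave -0.12 to -0.07 for the knockdown media. The members' own median for knockdown in 2i ran from -0.29 to 0.52 over the filters and scalings, so its sign depended on the scaling as well as on single libraries. On the deposited scale 66 of the 95 members were below the median of all families for knockdown in 2i, and 61 for knockdown in serum.

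**Figure D3:**
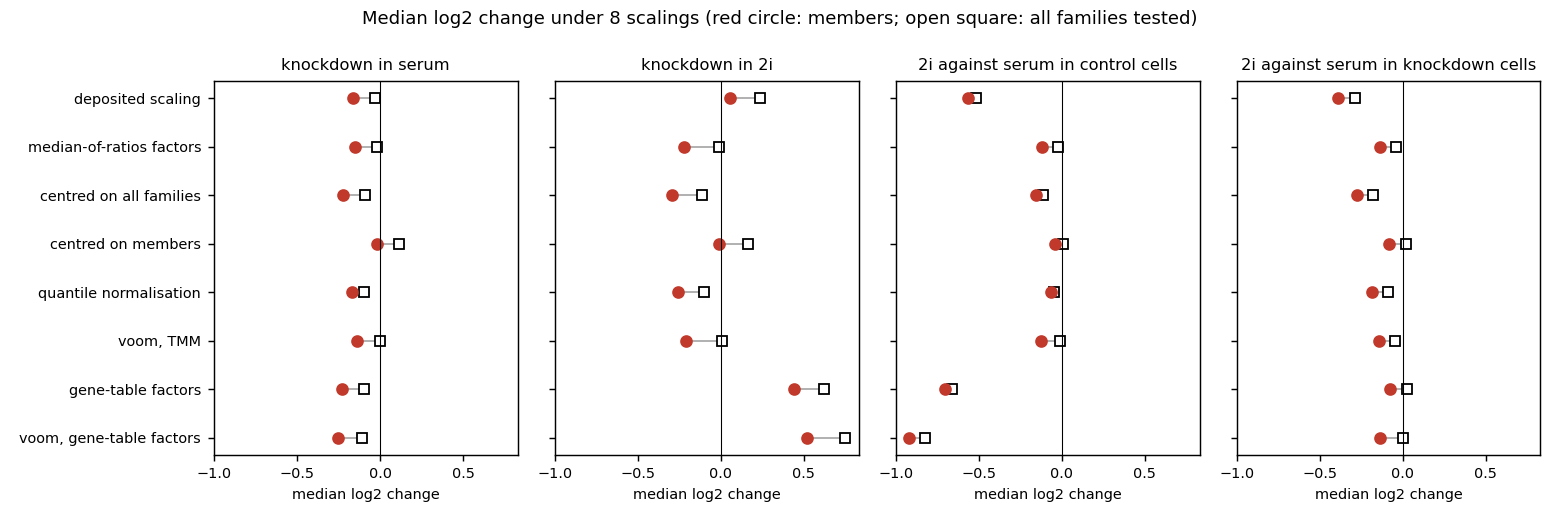
Median log2 change (horizontal axis) of the members (red circles) and of all families tested (open squares) under 8 scalings (vertical axis) in 4 contrasts. The medians for knockdown in 2i and for 2i against serum shift with the scaling. For the members they run from -0.29 to 0.52 and, in control cells, from -0.92 to -0.04. In the rows centred on all families or on members, the distance between circle and square equals that on the deposited scale by construction.

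Shares of reads, which use no size factor, gave a different picture by denominator. The 82 DNA transposon families took 1.20, 0.909 and 1.19% of the repeat reads outside structural RNA and tRNA in serum controls and 0.955, 0.894 and 0.960% in serum knockdowns. They took 1.10, 1.37 and 0.909% in 2i controls and 0.833, 0.850 and 0.672% in 2i knockdowns, so serum and 2i controls overlapped and all 3 2i knockdown libraries were below all 3 2i controls. Retroviral reads, which rose after knockdown, are in that denominator. Per 1000 gene reads, the 96 families had 4.57, 3.28 and 5.49 reads in serum controls, 3.67, 4.09 and 3.46 in serum knockdowns, 2.21, 2.64 and 2.60 in 2i controls and 3.45, 3.10 and 3.29 in 2i knockdowns. On this scale the 2i control libraries were below all libraries of the other 3 groups.

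**Figure D4:**
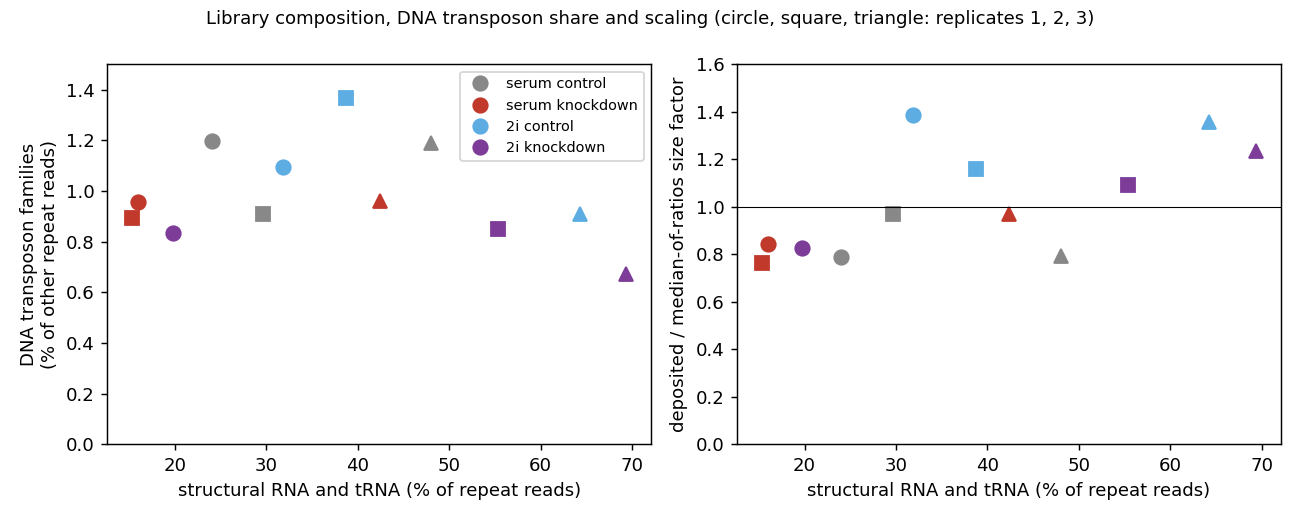
Share of the 82 DNA transposon families in repeat reads outside structural RNA and tRNA (left, %) and the ratio of the deposited to the median-of-ratios size factor (right), each against the structural RNA and tRNA share of the library (%); 1 point per library, colour by group and shape by replicate. The 2i controls have ratios of 1.16 to 1.39 and the serum libraries ratios of 0.764 to 0.970, and the structural share runs from 15.3 to 69.3% across libraries of all groups.

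Libraries differed within groups in a way shared by many members. Serum control replicate 2 was the lowest of its 3 for 62 of 95 members, 2i knockdown replicate 1 the highest for 69, and 2i knockdown replicate 3 the lowest for 65. The pooled standard deviation within groups had a median of 0.44 log2 units over the members and 0.41 over all families. It was 0.61 for the 27 members with fewer than 500 reads, 0.44 for the 38 with 500 to 3000 and 0.36 for the 30 with more. Kanga11a, with 5488 reads, had the highest at 1.08, and Tigger16b, with 1187, the lowest at 0.21.

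This spread limits what a missing call can say. The 95% interval of the log2 change lay within 1 unit either side of 0, that is within a 2-fold change, for 46 of 95 members after knockdown in serum and for 36 after knockdown in 2i. For the difference between media it did so for 8. URR1B was among the best measured, with an interval of -0.61 to 0.40 in serum and of -0.44 to 0.56 in 2i. All these intervals hold for the deposited scaling and do not take in the choice of scaling. With quantile normalisation the value of URR1B in 2i lay below the lower end of its interval. For Kanga11a the interval ran from -0.72 to 2.07 in serum and from -1.45 to 1.34 in 2i, so changes well over 2-fold were not detectable for it.

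Set against the 82 DNA transposon families of the same library, 3 of 4 retroviral families were again higher in every knockdown library than in any control of the same medium. MMERVK10C-int, the internal part of an ERVK provirus, had 7.51, 11.6 and 7.21 reads per 100 DNA transposon reads in serum controls and 133, 107 and 72.5 in serum knockdowns. It had 4.88, 4.90 and 5.49 in 2i controls and 74.3, 17.5 and 32.3 in 2i knockdowns. Knockdown libraries were above all controls in both media, 11.9-fold in serum and 8.14-fold in 2i by group means, beside 11.2-fold and 9.57-fold in normalised reads.

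IAPEz-int, the internal part of intracisternal A particles, had 25.3, 34.0 and 23.3 reads per 100 in serum controls and 81.8, 82.1 and 191 in serum knockdowns. It had 30.2, 41.4 and 36.6 in 2i controls and 435, 562 and 873 in 2i knockdowns, which is 4.30-fold in serum and 17.3-fold in 2i. MMERGLN-int, of the gammaretrovirus-like GLN group, rose 71.1-fold in serum and 27.5-fold in 2i by the same ratio, again without overlap. In normalised reads the folds were 3.75 and 17.1 for IAPEz-int and 67.7 and 30.3 for MMERGLN-int. MERVL-int, known for its expression in 2-cell embryos, had 22.2, 14.5 and 8.55 in 2i controls and 210, 23.3 and 79.8 in 2i knockdowns, a 6.93-fold difference of means carried mostly by replicate 1.

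The choice of reference bore on levels between media. IAPEz-int differed by -0.29 ± 0.31 (log2, SE, 2i against serum in control cells, limma adjusted p = 0.517) on the deposited scale. It differed by 0.24 ± 0.30 (SE, limma adjusted p = 0.721) when libraries were centred on the members, and by 0.33 ± 0.32 (SE, limma adjusted p = 0.607) with median-of-ratios factors. None of the 3 passed, so no direction between media can be read for IAPEz-int in control cells. In knockdown cells IAPEz-int was higher in 2i, by 1.99 ± 0.31 (log2, SE, limma adjusted p = 0.00283) on the deposited scale. It was higher there under each scaling run, by up to 2.41 (voom with gene-table factors, limma adjusted p = 0.00426). MERVL-int in control cells was lower in 2i under each scaling run, from -4.79 to -3.86. URR1A had 14.2 to 17.8 reads per 100 DNA transposon reads over all 12 libraries, so its share of the class varied little.

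**Figure D5:**
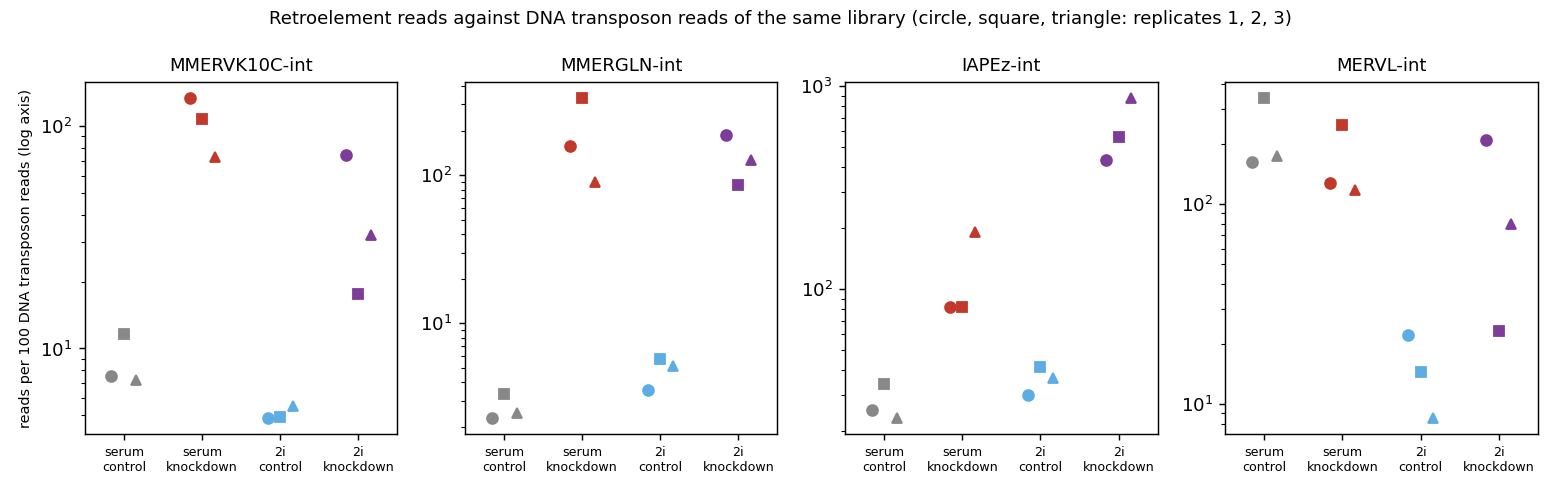
Reads of 4 retroviral families per 100 reads of the 82 DNA transposon families in the same library (vertical axes, log scale), by group; circles, squares and triangles are replicates 1, 2 and 3. Knockdown libraries lie above all controls in both media for MMERVK10C-int, MMERGLN-int and IAPEz-int, and for MERVL-int they do so only in 2i.

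The 14 families that are long terminal repeats by name had other medians, which is a description and was not tested. Their medians were 0.16 after knockdown in serum, 0.11 after knockdown in 2i and -0.27 for 2i against serum in control cells, beside -0.19, 0.06 and -0.62 for the 81 DNA transposons tested. MER54A was at 83.3, 68.6 and 71.6 normalised reads in serum controls and 132, 108 and 171 in serum knockdowns, without overlap (log2 change 0.71 ± 0.28, SE, limma adjusted p = 0.328). In 2i it was at 63.5, 80.1 and 101 in the control and 102, 128 and 120 in the knockdown, also without overlap (log2 change 0.43 ± 0.28, SE, limma adjusted p = 0.409). MER57E2, with the most reads of the 14, was at 365, 577 and 332 in serum controls and 711, 625 and 499 in 2i controls, with overlap. None of the 14 passed in any of the 5 comparisons on the deposited scale. Leaving them out of the count, without a new fit, therefore could not change it.

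Host genes descended from transposases of these and related superfamilies were read from the gene table, where 23 of 26 listed were found and 20 tested. No gene of the list passed after knockdown in serum, after knockdown in 2i, for the difference, or between media in control cells, against 0.649, 1.27, 0.00 and 3.62% of all genes tested with limma. At an unadjusted p under 0.05 the counts were 0, 0, 0 and 3. The share of all genes at that threshold is not given here, so the 3 cannot be set against the table as a whole. Tigd2, of the Tigger-derived family, passed between media in knockdown cells, against 3.75% of all genes. It was at 303, 367 and 456 normalised reads in serum knockdowns and 619, 1018 and 1059 in 2i knockdowns (log2 change 1.15 ± 0.31, SE, limma adjusted p = 0.0490), and this call was lost under most alternatives.

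Pogk, a pogo-transposase-derived gene with a KRAB domain, was at 116, 32.9 and 106 in serum controls and 16.6, 15.2 and 12.9 in 2i controls, without overlap (log2 change -1.26 ± 0.34, SE, limma adjusted p = 0.0527). Pogz, a relative that binds HP1, was at 629, 647 and 679 in serum controls and 1033, 856 and 413 in serum knockdowns, with overlap. Cenpb, the centromere protein that resembles pogo transposases, had log2 changes of -0.53 ± 0.28 (SE) in serum and -0.28 ± 0.28 (SE) in 2i after knockdown, neither past the test. Pgbd5, a piggyBac-derived gene, had 1.53 ± 0.59 (SE) for 2i against serum in knockdown cells and did not pass (limma adjusted p = 0.177).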

How the data were processed

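Total RNA of 12 libraries was sequenced, and the authors deposited variance-stabilised values on a log2 scale for 26061 genes and 1217 repeat families. Per the submitters' processing notes, the tools were Trim Galore 0.3.3, TopHat2 2.0.9 and DESeq2 (no version), with build mm9. The read counter, the repeat annotation, the handling of multi-mapping reads and the use of strand were not given in the sources used here, so families of similar sequence may share reads.

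Reads were recovered by inverting the transformation, and 100% of values came out whole within 0.01 of a read. Each table has its own size factors. Log2 changes on this scale understate changes of families with few reads, so folds use mean normalised reads. All kept families (mean at least 0.5 above the lowest value) entered 1 limma fit (limma 3.58.1, R 4.3.3) with 1 mean per group over all 12 libraries, a variance trend, two-sided tests and Benjamini-Hochberg adjustment over the 1097 families or 14487 genes, at a threshold of 0.05. The code was tested on simulated data. Depth covers counting error only.

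Members, lists, tests and most alternatives were chosen with earlier results of these data known. Named families were those that passed without overlap (at most 10 a comparison), the 3 with most reads per superfamily, the 3 largest changes each way per comparison, those beside the filter, Setdb1, 4 retroviral families and transposase-derived genes. Families outside this rule were named after their values were seen. The ancient L1 list first took in young L1Md families and was corrected after the data were seen. Zbed5 was matched as 2410018M08Rik, and Tigd5, Jrkl and Zbed6 are not analysed here. No coordinates are given, since the reference at hand is not mm9.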

Additional observations from a re-analysis of the deposited data

How the results depend on the processing

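The number of members called for 2i against serum in control cells was 15 on the deposited scale. It was 4 after centring on all families, 5 after centring on families outside structural RNA and tRNA, 2 after centring on the members, 2 with quantile normalisation, 4 with voom and TMM, and 27 with voom and gene-table size factors. Of the alternatives added after seeing the data, median-of-ratios factors gave 2, gene-table factors on retransformed values 26, and leaving out replicate 3 of both 2i groups 6. In the order of the first 6 settings, the median was -0.16, -0.15, -0.040, -0.067, -0.13 and -0.92, and with median-of-ratios factors -0.12. For knockdown in 2i the calls, 0 on the deposited scale, were 2, 2, 1, 9, 2 and 5 in that order, 2 with median-of-ratios and 7 with gene-table factors. Its median, 0.06, was -0.29 and -0.28 after centring on all families and on those outside structural RNA, -0.26 with quantile normalisation, -0.21 with TMM, 0.52 with voom and gene-table factors, -0.22 with median-of-ratios and 0.44 with retransformed gene-table factors. URR1B, near 0 in this comparison on the deposited scale, changed sign after each centring and with quantile normalisation, which gave -0.51 (limma adjusted p = 0.0214). For knockdown in serum, centring on families outside structural RNA and TMM each called 1 member. The median difference of the knockdown changes, 0.27, was -0.021, 0.061, 0.055, -0.011, -0.020 and 0.83 under the same 6 settings, -0.027 with median-of-ratios and 0.70 with gene-table factors. For 2i against serum in knockdown cells the median, -0.39, was -0.19, -0.083, -0.18, -0.14 and -0.13 under the second to sixth of them, -0.14 with median-of-ratios, -0.075 with gene-table factors and -0.22 without replicate 3 of both 2i groups. Leaving out 1 library at a time gave 0 to 1 calls for knockdown in 2i (6.47 to 11.4% of all families called), 0 to 21 for the control media (0.456 to 24.3%), 0 to 2 for the knockdown media (0.365 to 5.74%) with a median of -0.54 to -0.22, and, for transposase-derived genes, 0 to 1 in control and 0 to 2 in knockdown media. These genes, with 0 calls between media in control cells, gave 1 after centring on all genes. Between media in knockdown cells their 1 call became 0 without a filter, with the stricter filter, after centring, with quantile normalisation, with TMM, with only the groups compared in the fit, and without replicate 3 of both 2i groups. The causes of these shifts were not tested, beyond what the rescaling itself does. For the transposase-derived genes, the share of all genes called in these alternative fits is not given here.

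Libraries of the same number shared part of their variation, unevenly, and the main fit held no term for it. A pairing by number was not firm. Same-numbered control and knockdown libraries correlated, in their deviations from group means, at 0.21, 0.04 and 0.24 in serum and at 0.40, -0.02 and 0.46 in 2i over all families tested. Over the members it was 0.17, 0.11 and 0.20 in serum and 0.18, -0.11 and 0.063 in 2i. In serum every library correlated best with its own number over all families, and in 2i neither replicate 2 did. Replicate 3 had the highest structural RNA share in all 4 groups (48.0, 42.4, 64.3 and 69.3%). With the replicate block, members called were 1 for knockdown in 2i, 19 for the control media and 1 for the knockdown media, with 13.9, 25.3 and 3.28% of all families called. Without a block these shares of all families were 10.5, 17.1 and 0.547%. With a replicate block within each medium they were 2, 23 and 2, with 15.3, 27.1 and 5.38% called. Transposase-derived genes called were 2 in control and 2 in knockdown media with either block, with 9.33 to 13.9% of all genes called over these fits. Without a block 3.62 and 3.75% of all genes were called.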

Other observations

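The 12 size factors of the repeat table, recovered from its values, were 3-decimal numbers to within 1.5e-09, while 1 of the 12 gene-table factors was within 1e-05 of one. The number of members with at least 1 read was 86 to 96 per library, lowest in replicate 3 of the 2i knockdown, which also had the fewest member reads, 15874. Kanga11a was called lower in 2i in knockdown cells without replicate 1 of the 2i knockdown (log2 change -2.35, limma adjusted p = 0.0357), while with all 12 libraries its value was -1.56 (limma adjusted p = 0.403).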
